A study of Arabidopsis thaliana with 6 samples.

Results

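CACTA transposon genes were measured in young leaves of 2 Arabidopsis thaliana silencing mutants, kyp and cmt3, and of the wild type Col-0. A gene model was taken as a member where its description in the array files names CACTA or En/Spm and names none of gypsy, Athila and copia. By this rule 340 of 30361 gene models were members, and the exclusion removed 0. The groups were kyp, cmt3 and wild type Col-0, with 2 arrays each, and all 3 came from untreated plants kept for 4 weeks on soil under long days. No allele is named for either mutant in the labels, and no transgene. Whether both arrays of a group stem from different plants is not said either, so every p-value below measures only how far these arrays lie apart, and that spread may be technical. Each array gave 1 RMA-normalized Cy3 intensity per gene model, which was put on the log2 scale here, and every level below is a log2 intensity.

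CACTA elements are DNA transposons that move by excision and reinsertion, and they take their name from the bases at their ends. The En/Spm element of maize is the best known of them. It encodes a pair of proteins that act together, TnpD, which has a transposase domain, and TnpA, which binds short repeats near the ends of the element. In the related Tam1 element of snapdragon the corresponding genes are called TNP2 and TNP1. KYP, also named SUVH4, methylates lysine 9 of histone H3. CMT3 is the chromomethylase that maintains DNA methylation at CHG sites, and both marks are known to reinforce each other at transposons, where they keep transcription low. The comparisons ask which CACTA genes change in leaves when either enzyme is mutated.

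The descriptions divide the members into 7 families. The Ptta class, named for a plant transposase family, held 126 members, Tnp2 held 102 and Tnp1 held 37. A further 35 were described by a match to Tdc of carrot, 27 by a match to Shooter of maize and 5 by a match to En-1 of maize, and 8 carried pseudogene text. Chromosomes 1 to 5 held 65, 68, 75, 67 and 65 members. All 340 were matched by locus to the RefSeq annotation of TAIR10.1, which lists each of them as a pseudogene and gives 1 of them a symbol of its own (MEE19, AT2G34130). The value of a gene model came from 2 probes in 331 members and from 3 in the other 9, and whether a probe also binds related copies was not tested.

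Most CACTA genes gave low intensities in every genotype. The median over the 340 members was 5.64 and 5.67 on the kyp arrays, 5.77 and 5.76 on the cmt3 arrays, and 5.57 and 5.39 on the wild type arrays. The 90th percentile of the members was 7.95 and 7.62 in kyp, 8.43 and 8.17 in cmt3, and 7.18 and 7.23 in wild type. Members above the median of their own array numbered 8 and 7 in kyp, 10 and 10 in cmt3, and 1 and 1 in wild type. The 90th percentile and the number above the array median were therefore higher on all 4 mutant arrays than on both wild type arrays. The medians had the same order but differed little. The highest member did not have that order, at 13.10 and 13.15 in kyp, 13.35 and 13.47 in cmt3, and 13.33 and 13.42 in wild type. In wild type 247 members (72.6%) lay in the lowest 25% of all gene models, at or below a log2 intensity of 6.20. A fold given below is a fold of intensity, and no background or detection values were used to call a gene present or absent.

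The arrays of a genotype correlated across genes at Pearson's r of 0.987 in kyp, 0.987 in cmt3 and 0.986 in wild type. By the image names, slide 1 carried kyp replicate 1 with both wild type arrays, and slide 2 carried kyp replicate 2 with both cmt3 arrays. cmt3 and wild type therefore share no slide. In this pair, genotype and slide are separated in a fit with a slide term only through the kyp arrays. The closest pair of arrays, kyp replicate 2 and cmt3 replicate 1 (r = 0.989), differ in genotype and share slide 2. The 5 leaf markers lay between 15.87 and 15.98 on every array, near the top of the range (64963 before the log2 scale). They had little room to rise there, and a fall may be compressed. The markers of flower, pollen, seed and root lay between 4.10 and 10.29. Of those 18 marker genes 0 were called in either mutant by limma, but the 5 leaf markers weigh little in that count and the next. At an unadjusted p under 0.05 there were 3 in kyp (16.7%, against 10.2% of all gene models) and 1 in cmt3 (5.56%, against 23.0%). On the summed intensity of each list (log2) the 3 seed markers lay at 6.98 to 7.18 in kyp, 6.70 to 7.09 in cmt3 and 6.57 to 6.93 in wild type. The 3 root markers lay at 8.58 to 9.49 in kyp, 9.24 to 9.48 in cmt3 and 8.12 to 8.69 in wild type. That sum mostly follows PYK10, the highest of the 3 on every array, which differed from wild type by 0.75 in kyp and 1.07 in cmt3. PRP3 differed by 0.48 and 0.53, and COBL9 by -0.54 and 0.06. The 4 flower markers lay at 10.06 to 10.14 in kyp, 9.68 to 9.86 in cmt3 and 9.86 to 10.07 in wild type, and the 3 pollen markers at 10.22 to 10.24 in kyp, 9.93 to 10.07 in cmt3 and 10.19 to 10.42 in wild type. AG and VEX1 were the highest of the flower and pollen lists on every array and weigh most in those sums. The part of these lists in the CACTA results was not tested.

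In kyp leaves 4 CACTA genes were called higher than in wild type and 0 lower, where called means a limma p that stays under 0.05 after Benjamini-Hochberg adjustment over the whole array. That is 1.18% of the members, while 0.0988% of all gene models were called higher and 0.00659% lower. The 4 comprised 3 Tnp2 genes and 1 Ptta gene, and their changes lay between 2.29 and 4.35 on the log2 scale. The median change over the 340 members was 0.13, against 0.00 over all gene models, and 195 of the 340 changes (57.4%) were positive, against 50.7%. Without kyp replicate 1 the median was 0.068. A count that needs no test took members whose mean was at least 4-fold above wild type and whose arrays did not overlap with it. It gave 20 members (5.88%) in kyp, against 0.441% of all gene models, and 0 members were lower by the same rule, against 0.175%. At an unadjusted p under 0.05 there were 70 members (20.6%), 53 higher and 17 lower, against 10.2% of all gene models. By direction, 1553 of all gene models were higher and 1551 lower at that limit. When any 1 of the 6 arrays was left out, and with the slide as a block, 0 of the 340 members and 0 of all 30361 gene models were called in kyp. The median with the slide as a block was 0.16.

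In cmt3 leaves 20 CACTA genes were called higher than in wild type and 0 lower (limma, adjusted p under 0.05). The 20 are 5.88% of the members, where 0.56% of all gene models were called higher and 0.181% lower. Their changes lay between 1.20 and 5.39 on the log2 scale, with a median of 4.16. Over all 340 members the median change was 0.18, against 0.03 over all gene models, and 205 changes (60.3%) were positive, against 54.1%. At least 4-fold above wild type without overlap of the arrays were 36 members (10.6%), against 0.912% of all gene models, and again 0 members were lower, against 0.978%. With an intensity trend in limma 33 members (9.71%) were called higher and 1 (0.294%) lower, against 3.99% and 3.49% of all gene models, so that the members' share in both directions, 10%, lay near the 7.48% of the whole array. At an unadjusted p under 0.05 there were 86 members (25.3%), 74 higher and 12 lower, against 23.0% of all gene models. By direction, 3908 of all gene models were higher and 3080 lower at that limit. With 1 array left out the calls fell over the whole array. Without wild type replicate 1, 4 members were called (1.18%, against 0.105% of all gene models), without wild type replicate 2, 6 (1.76%, against 0.277%), and without either kyp array, 4 (1.18%, against 0.128%). Without cmt3 replicate 1 the call was left to 2 (0.588%, against 0.231%), and without cmt3 replicate 2 to 1 (0.294%, against 0.109%). With the slide as a block 0 members and 0 of all gene models were called. The median with that block was 0.20. Because kyp and cmt3 were set against the same wild type arrays, the counts of the 2 mutants are not independent of each other.

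**Figure D1:**
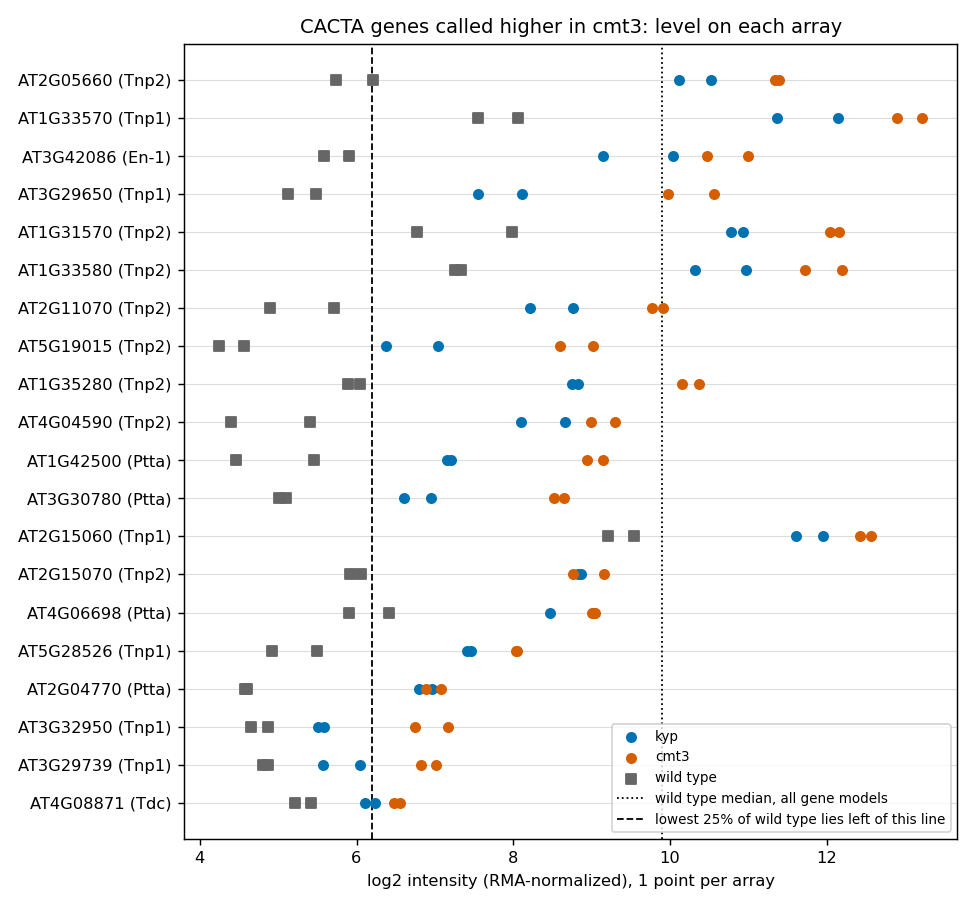
Log2 intensity (x axis) of the 20 CACTA genes called higher in cmt3 (rows), with 1 point for each of the 2 kyp, 2 cmt3 and 2 wild type arrays. Every kyp and cmt3 point lies to the right of both wild type points of its row, and the wild type means of 16 of the 20 lie left of the dashed line that bounds the lowest 25% of gene models.

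The 20 genes called in cmt3 had cmt3 means of 6.51 to 13.06 and wild type means of 4.41 to 9.38, and 16 of them were among the lowest 25% of gene models in wild type. In cmt3 the means of 8 of the 20 exceeded 9.90, the wild type median of all gene models. In kyp the same 20 genes stood above wild type by 0.79 to 4.35, with a median of 2.56, and 16 of them were at least 4-fold higher there. At least 4-fold higher in kyp without overlap of the arrays were 5.88% of all members and 0.441% of all gene models. The choice of the 20 by low values on the same wild type arrays favours a kyp level above wild type. These kyp values therefore describe the 20 and are no separate support. Since bulk leaf RNA was used, a higher level in each cell and a larger number of cells that transcribe the gene cannot be told apart.

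Among Tnp2 genes, named for the transposase part of the element, was the member with the largest fitted change in both mutants. AT2G05660 (chr2:2108118-2114696 in the gene models of the files, marked Release 6) read 10.52 and 10.11 on the kyp arrays, 11.40 and 11.34 on the cmt3 arrays, and 6.21 and 5.74 on the wild type arrays. The groups did not overlap, and both cmt3 arrays exceeded both kyp arrays. By limma it stood 20.3-fold above wild type in kyp (a rise of 4.35 ± 0.23 SE, adjusted p = 0.0294). In cmt3 it rose 42.1-fold (5.39 ± 0.23, adjusted p = 0.00887).

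AT1G35280 (chr1:12944115-12946472), also Tnp2, had the smallest adjusted p of all members in both mutants. It read 8.83 and 8.75 in kyp, 10.37 and 10.16 in cmt3, and 5.89 and 6.05 in wild type. The 3 groups formed 3 separate steps with a narrow spread inside each. The rise was 7.07-fold in kyp (2.82 ± 0.13 SE, adjusted p = 0.0183, limma) and 19.6-fold in cmt3 (4.30 ± 0.13, adjusted p = 0.00372). Its rise in cmt3 was the 1 call among the 20 that remained without each of the 6 arrays in turn.

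In 3 further Tnp2 genes called in cmt3 the levels had the same order, with kyp between cmt3 and wild type. AT1G31570 (chr1:11302763-11309145) read 10.93 and 10.77 in kyp, 12.16 and 12.04 in cmt3, and 7.99 and 6.77 in wild type, where its 2 arrays lay far apart. Its rise in cmt3 was 4.72 ± 0.42 (SE, adjusted p = 0.0399, limma). AT2G11070 (chr2:4396661-4400155) read 8.76 and 8.21 in kyp, 9.92 and 9.78 in cmt3, and 5.71 and 4.89 in wild type, and rose by 4.54 ± 0.35 in cmt3 (adjusted p = 0.0283). AT4G04590 (chr4:2298265-2300004) read 8.66 and 8.10 in kyp, 9.30 and 8.99 in cmt3, and 5.41 and 4.40 in wild type, a change of 4.24 in cmt3 (adjusted p = 0.0456). These 3 genes differed from wild type by 3.18 to 3.48 in kyp, with adjusted p between 0.119 and 0.148, so none of them was called there.

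AT5G19015 (chr5:6349764-6350951) lies in a region with few transposable elements, where transposable element genes made up 1.47% of the gene models in the 1 Mb around it. It read 7.04 and 6.38 in kyp, 9.02 and 8.60 in cmt3, and 4.57 and 4.25 in wild type. The cmt3 arrays were clearly the highest, and both kyp arrays lay about midway. It rose by 4.40 ± 0.30 in cmt3 (SE, adjusted p = 0.0230, limma), and the kyp difference was 2.30 (adjusted p = 0.163).

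Tnp1 genes, named for the DNA-binding part of the element, gave 6 of the 20 calls in cmt3 and 0 in kyp. That is 16.2% and 0% of the 37 Tnp1 genes, against 0.56% and 0.0988% of all gene models called higher. In kyp 14 of the 37 had an unadjusted p under 0.05, against 10.2% of all gene models, and 11 of the 14 were higher. AT1G33570 (chr1:12172982-12174479) read 12.15 and 11.36 in kyp, 13.22 and 12.90 in cmt3, and 8.06 and 7.55 in wild type. It rose by 5.26 ± 0.34 in cmt3 (SE, adjusted p = 0.0225, limma), and in kyp it differed by 3.95 (adjusted p = 0.0815). AT3G29650 (chr3:11520305-11523920) read 8.11 and 7.55 in kyp, 9.97 and 10.56 in cmt3, and 5.13 and 5.48 in wild type. Its rise in cmt3 was 4.96 ± 0.31 (adjusted p = 0.0207), while the kyp difference was 2.53 (adjusted p = 0.151). Both genes were thus far above wild type on all 4 mutant arrays, and the kyp arrays were the lower of the 2 mutants.

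The other 4 Tnp1 genes called in cmt3 changed less. AT5G28526 rose by 2.84 (adjusted p = 0.0283, limma), AT3G32950 by 2.20 (adjusted p = 0.0328) and AT3G29739 by 2.08 (adjusted p = 0.0414). AT3G32950 read 5.51 and 5.59 in kyp, 6.75 and 7.17 in cmt3, and 4.87 and 4.65 in wild type, so that even its cmt3 level was low. AT2G15060 (chr2:6531836-6535595), the remaining Tnp1 gene, read 11.96 and 11.60 in kyp, 12.43 and 12.56 in cmt3, and 9.55 and 9.21 in wild type. It was among the 5 members with the highest wild type intensity and was the 1 of those 5 that was called.

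Autonomous CACTA elements carry both coding parts, and 15 pairs of a Tnp1 and a Tnp2 gene model lay within 1000 bp of each other. In cmt3 both partners were called in 2 pairs, a single partner in 3 and neither in 10. On chromosome 1 AT1G33570 lies 273 bp from the Tnp2 gene AT1G33580 (chr1:12174753-12176039), which read 10.97 and 10.32 in kyp, 12.20 and 11.73 in cmt3, and 7.34 and 7.26 in wild type. The partners differed from wild type by 3.95 and 3.35 in kyp, where neither passed the test (adjusted p = 0.0815 and 0.0776, limma), and rose by 5.26 and 4.66 in cmt3 (adjusted p = 0.0225 and 0.0200).

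The second such pair lies on chromosome 2. AT2G15070 (Tnp2, chr2:6535907-6539463), 311 bp from AT2G15060, read 8.86 and 8.83 in kyp, 9.16 and 8.77 in cmt3, and 5.91 and 6.06 in wild type. Here the kyp and cmt3 arrays overlapped. It rose by 2.86 ± 0.17 in kyp (SE, adjusted p = 0.0349, limma) and by 2.98 ± 0.17 in cmt3 (adjusted p = 0.0159). Its partner AT2G15060 rose by 3.12 in cmt3 (adjusted p = 0.0202) and differed by 2.40 in kyp (adjusted p = 0.0707).

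In the 3 pairs with a single call the partners differed in size of change by varying amounts. AT2G11070 (Tnp2) and AT2G11060 (Tnp1) are 18 bp apart, and in cmt3 the first rose by 4.54 while the second differed from wild type by 0.35 (adjusted p = 0.636). AT2G11060 read 6.67 and 6.05 in kyp, 6.85 and 7.44 in cmt3, and 6.43 and 7.16 in wild type, with overlapping groups. AT3G29650 (Tnp1) and AT3G29648 (Tnp2), 59 bp apart, differed from wild type by 4.96 and 0.67 in cmt3, the second without a call (adjusted p = 0.422). In the last of the 3, AT3G29739 (Tnp1) and AT3G29736 (Tnp2) differed from wild type by 2.08 and 1.66 in cmt3, the second without a call (adjusted p = 0.102). Adjacent partners therefore did not always reach a call together, and the difference between partners was not tested.

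A pair without a call, AT3G30836 (Tnp1) and AT3G30837 (Tnp2) on chromosome 3, had changes of 4.09 and 2.73 in cmt3 (adjusted p = 0.155 and 0.176, limma) and is named here after its values were seen. AT3G30836 read 7.99 and 4.59 in kyp, 8.91 and 9.64 in cmt3, and 5.18 and 5.20 in wild type. AT3G30837 read 6.90 and 4.42 in kyp, 7.21 and 7.83 in cmt3, and 4.92 and 4.66 in wild type. In both genes kyp replicate 1 stood above wild type and kyp replicate 2 below it, so the 2 kyp arrays disagreed at this pair.

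**Figure D2:**
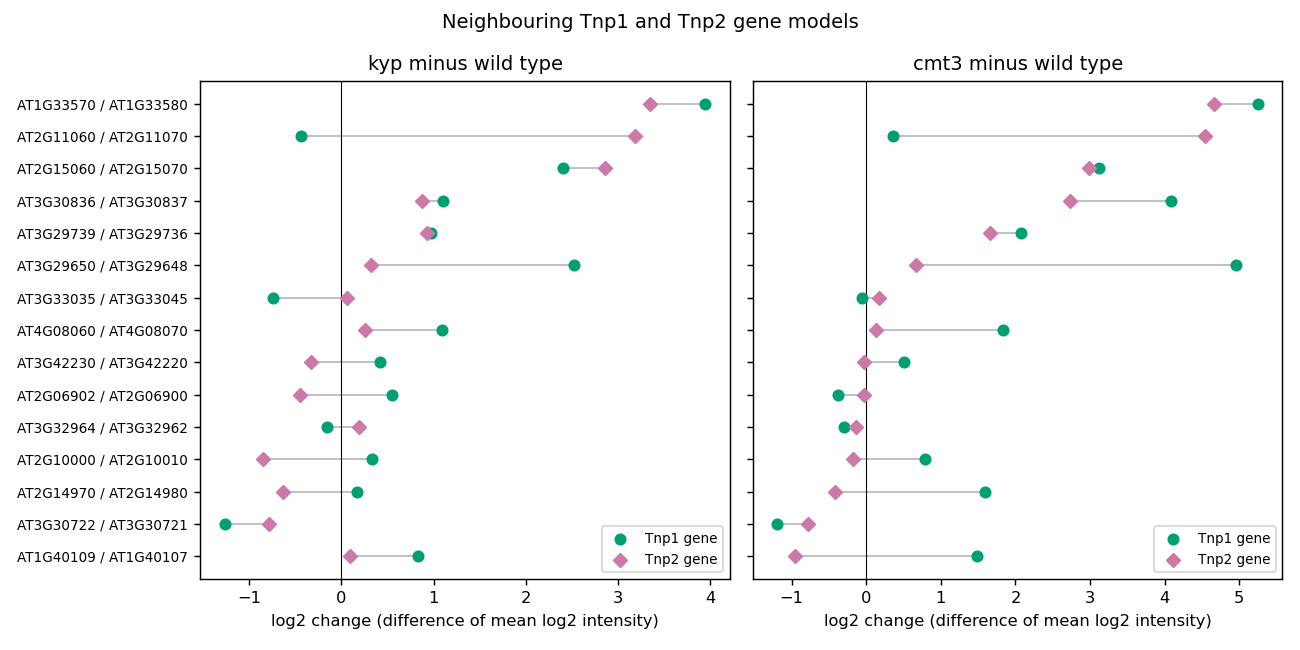
Log2 change (x axis) of the Tnp1 gene (circle) and the Tnp2 gene (diamond) of each of the 15 neighbouring pairs (rows), in kyp minus wild type (left) and cmt3 minus wild type (right). AT1G33570 and AT1G33580 lie together at 5.26 and 4.66 in cmt3, while AT2G11060 and AT2G11070 lie apart at 0.35 and 4.54.

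Among the 126 Ptta genes 1 was called in kyp (0.794%) and 4 in cmt3 (3.17%), against 0.0988% and 0.56% of all gene models called higher. AT2G04770 (chr2:1671113-1672072), called in both, read 6.97 and 6.80 in kyp, 7.08 and 6.89 in cmt3, and 4.61 and 4.58 in wild type. The kyp and cmt3 arrays overlapped, and both groups lay well above wild type. It rose by 2.29 ± 0.12 in kyp (SE, adjusted p = 0.0294, limma) and by 2.40 ± 0.12 in cmt3 (adjusted p = 0.0132).

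The other 3 Ptta genes passed in cmt3 and not in kyp. AT1G42500 (chr1:15953815-15956146) read 7.15 and 7.20 in kyp, 9.14 and 8.94 in cmt3, and 5.45 and 4.47 in wild type, and rose by 4.08 ± 0.35 in cmt3 (SE, adjusted p = 0.0358, limma). AT3G30780 (chr3:12465058-12467250) read 6.60 and 6.95 in kyp, 8.65 and 8.52 in cmt3, and 5.01 and 5.10 in wild type, and rose by 3.53 ± 0.15 in cmt3 (adjusted p = 0.00903). AT4G06698 rose by 2.86 (adjusted p = 0.0416). In kyp these 3 genes differed from wild type by 2.22 (adjusted p = 0.246), 1.72 (adjusted p = 0.0815) and 2.59 (adjusted p = 0.111).

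The other 4 of the 5 members with the highest wild type intensity were not called. AT4G08110 (Ptta, chr4:5083923-5086637) read 13.10 and 13.15 in kyp, 13.35 and 13.47 in cmt3, and 13.33 and 13.42 in wild type. Its changes were -0.26 in kyp (adjusted p = 0.506) and 0.03 in cmt3 (adjusted p = 0.883). AT5G34602 (Ptta) read 8.74 and 8.09 in kyp, 7.70 and 7.69 in cmt3, and 8.89 and 9.52 in wild type, a difference of -1.51 in cmt3 that did not pass (adjusted p = 0.112). The last of the 5, AT5G34790 (Ptta) and AT5G35606 (Tnp2), differed by 0.33 and -0.54 in kyp and by 0.44 and -0.07 in cmt3, with no call.

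The remaining families gave few calls. AT3G42086 (chr3:14278206-14283225), 1 of the 5 genes matched to En-1 of maize, read 10.04 and 9.14 in kyp, 10.99 and 10.48 in cmt3, and 5.58 and 5.90 in wild type. It rose by 4.99 ± 0.38 in cmt3 (SE, adjusted p = 0.0283, limma) and differed by 3.85 in kyp (adjusted p = 0.0968). Of the 35 Tdc genes 1 was called, AT4G08871, which rose by 1.20 in cmt3 (adjusted p = 0.0499), at the edge of the threshold. Of the 27 Shooter genes 0 were called in either mutant (2 in kyp and 1 in cmt3 at an unadjusted p under 0.05), and of the 8 with pseudogene text also 0 (0 and 1 at that limit). The share of all gene models at that limit was 10.2% in kyp and 23.0% in cmt3, and 0.0988% and 0.56% were called higher. The largest changes in these families were those of AT1G42510 (Shooter), at 1.37 in cmt3 (adjusted p = 0.0870), AT1G45256 (Tdc), at 1.85 (adjusted p = 0.239), and AT2G06370 (pseudogene text), at 2.26 (adjusted p = 0.151). For AT1G45256 the change was -0.19 with the slide as a block, and its arrays read 4.28 and 6.32 in kyp, 6.29 and 6.29 in cmt3, and 4.85 and 4.02 in wild type. The 3 arrays of slide 2 thus all stood above the 3 of slide 1.

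**Figure D3:**
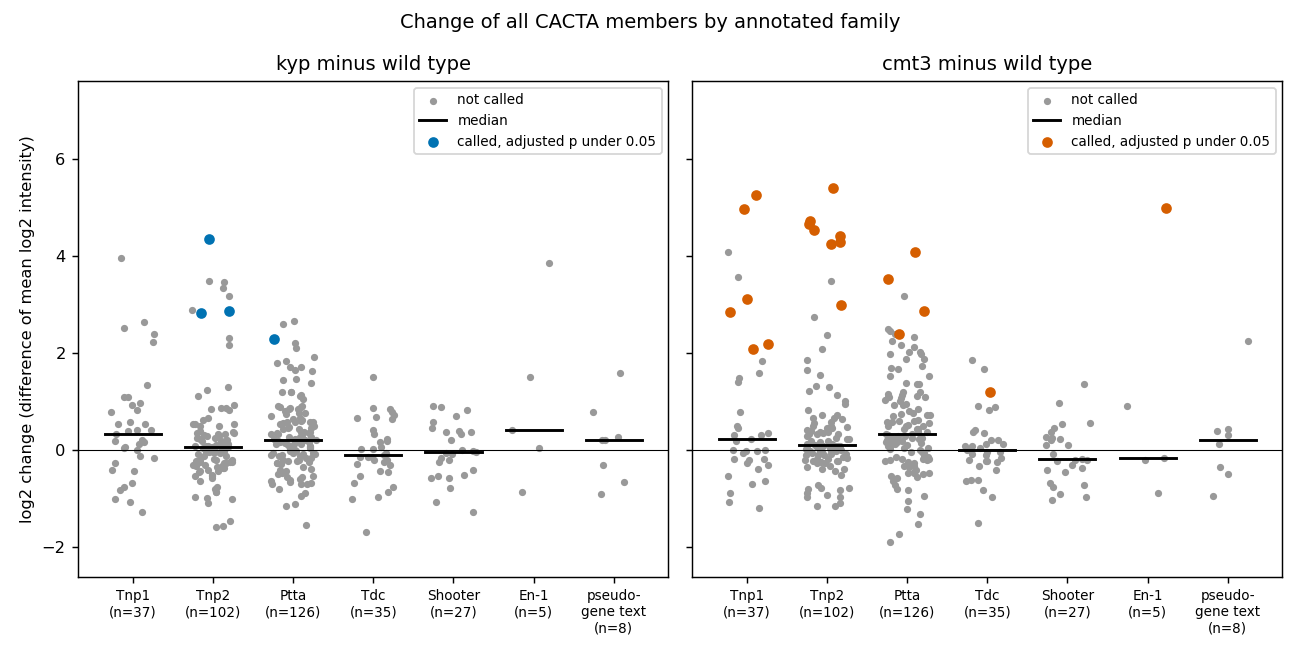
Log2 change (y axis) of all 340 CACTA members by family (x axis), in kyp minus wild type (left) and cmt3 minus wild type (right), with called genes in colour and family medians as bars. The 4 genes called in kyp are Tnp2 and Ptta genes, and 18 of the 20 called in cmt3 are Tnp1, Tnp2 or Ptta genes.

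Set out by family, 6 of 37 Tnp1 genes (16.2%), 8 of 102 Tnp2 genes (7.84%) and 4 of 126 Ptta genes (3.17%) were called higher in cmt3. In kyp the counts were 0, 3 and 1. Over all gene models 0.56% were called higher in cmt3 and 0.0988% in kyp. Family medians of the change in kyp were 0.34 for Tnp1, 0.06 for Tnp2, 0.21 for Ptta, -0.09 for Tdc, -0.03 for Shooter, 0.42 for the 5 En-1 genes and 0.21 for pseudogene text. In cmt3 they were 0.22, 0.12, 0.33, 0.01, -0.18, -0.16 and 0.22 in the same order of families. With the slide as a block the Ptta median was 0.34 in kyp and 0.57 in cmt3, and the En-1 median in cmt3 was 0.26. Changes of less than 2-fold in either direction were seen in 82.4% of the members in kyp and 74.1% in cmt3, against 94.8% and 90% of all gene models. For Tnp1 the shares were 70.3% and 62.2%, for Tnp2 82.4% and 77.5%, and for Ptta 81.0% and 65.9%. The 4-fold count, which uses no call, gave 5 Tnp1, 9 Tnp2 and 5 Ptta genes in kyp and 8, 12 and 14 in cmt3, against 0 Tdc and 0 Shooter genes in either mutant. By that count 0.441% of all gene models were higher in kyp and 0.912% in cmt3. No difference between families was tested.

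Of the 36 members at least 4-fold higher in cmt3, 17 were not called. In some the arrays of a genotype lay far apart, among them AT4G06196 (Tnp2), named after its values were seen, which read 8.12 and 7.44 in kyp, 8.82 and 7.92 in cmt3, and 4.30 and 5.48 in wild type. AT2G07483 (Tnp1), chosen likewise, read 10.88 and 9.76 in kyp, 11.35 and 11.15 in cmt3, and 7.70 and 7.67 in wild type, and its change of 3.57 in cmt3 had an adjusted p of 0.0577.

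Set against other element groups on the same arrays, CACTA genes were called higher at 1.18% in kyp and 5.88% in cmt3. LINE genes were called at 0.99% and 6.6%, Mutator genes at 0% and 1.79%, and hAT genes at 0% and 3.9%, in that order of mutants, against 0.0988% and 0.56% of all gene models. In kyp, 36 of 279 Mutator genes (12.9%) and 17 of 77 hAT genes (22.1%) had an unadjusted p under 0.05, against 10.2% of all gene models. In cmt3 these were 45 Mutator genes (16.1%) and 16 hAT genes (20.8%), both below the 23.0% of all gene models. For LINE genes the shares at that limit were 17.5% in kyp and 24.4% in cmt3. The 4-fold count was 5.88% in kyp and 10.6% in cmt3 for CACTA, 4.29% and 9.24% for LINE, 1.43% and 3.58% for Mutator, and 5.19% in both mutants for hAT, against 0.441% and 0.912% of all gene models. The differences between these groups were not tested.

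Directly compared, 0 of the 340 CACTA genes were called between kyp and cmt3 by limma, while 0.00988% of all gene models were called higher in kyp and 0.0198% lower (0.0296% in either direction). The count was also 0 with an intensity trend and with robust moderation. At an unadjusted p under 0.05 there were 50 members (14.7%), 13 higher and 37 lower in kyp, against 12.5% of all gene models. By direction, 1564 of all gene models were higher and 2232 lower in kyp at that limit. The median difference, kyp minus cmt3, was -0.13, against -0.03 over all gene models, and the kyp mean was below the cmt3 mean in 207 of 340 members. At least 4-fold lower in kyp without overlap were 5 members, against 0.296% of all gene models, and 0 were higher, against 0.412%.

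The members with the smallest p in that comparison were AT3G30780 (-1.81, adjusted p = 0.145), AT1G35280 (-1.47, adjusted p = 0.146), AT1G44070 (-1.33, adjusted p = 0.241), AT3G29650 (-2.44, adjusted p = 0.241) and AT3G32950 (-1.41, adjusted p = 0.247), all lower in kyp. AT1G44070 (Tnp2) differed from the others in that it stood at the wild type level in kyp (-0.11) and above it in cmt3 (1.22), without a call in either. For AT1G35280 the 95% interval of the difference ran from -1.81 to -1.13. For AT2G04770, whose kyp and cmt3 arrays overlapped, it ran from -0.43 to 0.22, and for AT2G15070 from -0.56 to 0.33. These intervals are for single genes, without adjustment.

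All 20 genes called in cmt3 had a lower mean in kyp than in cmt3, by 0.11 to 2.44, although none of the differences was called (adjusted p between 0.145 and 0.797, limma). The choice of genes by their cmt3 values favours such an order. Over all 340 members the kyp mean was the lower one in 60.9%, against 54.4% of all gene models. On slide 1, kyp replicate 1 exceeded both wild type arrays in 20 of the 20 genes, and the difference from their mean ran from 0.74 to 4.55. On slide 2, kyp replicate 2 lay below both cmt3 arrays in 19 of the 20, the difference from their mean running from -2.72 to -0.14. Over all 340 members kyp replicate 1 exceeded both wild type arrays in 42.1% (35.2% of all gene models), and kyp replicate 2 lay below both cmt3 arrays in 48.5% (41.4%). The choice of the 20 by high cmt3 and low wild type values on these same arrays favours both steps, so these counts describe the 20 and support nothing about the slides. With the slide as a block the cmt3 changes of the 20 were 1.33 to 6.04, against 1.20 to 5.39 without it, and no call remained (adjusted p 0.180 to 0.457).

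**Figure D4:**
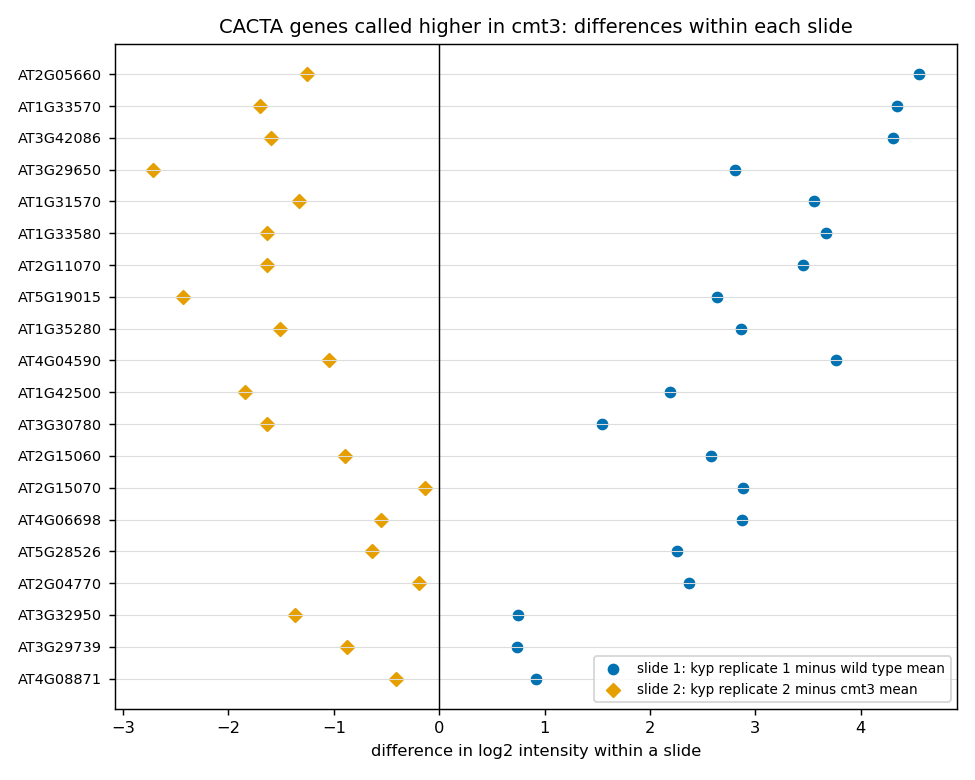
Difference in log2 intensity within a slide (x axis) for the 20 CACTA genes called higher in cmt3 (rows). Circles give kyp replicate 1 minus the mean of both wild type arrays on slide 1, all above 0 (0.74 to 4.55), and diamonds give kyp replicate 2 minus the mean of both cmt3 arrays on slide 2, all below 0 (-2.72 to -0.14).

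The calls were also set against the surroundings of each gene. For each gene the share of transposable element genes among the gene models in the 1 Mb centred on it was taken from the files, and 228 of the 340 members lay where this share was 40% or more. Below 25%, 11 of 57 members (19.3%) were called higher in cmt3 and 4 of 57 in kyp. At 25% or more, 9 of 283 (3.18%) were called in cmt3 and 0 of 283 in kyp. The shares of all gene models called higher were 0.56% in cmt3 and 0.0988% in kyp. The median share was 23.9% for the 20 genes called in cmt3 and 47.1% for the other 320 members. The limit of 25% was chosen after the values were seen, and no test was made.

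In finer steps, kyp calls numbered 0 of 28 members under 10%, 4 of 29 between 10% and 25%, and 0 of 55 and 0 of 228 above that. In cmt3 the calls were 4 of 28, 7 of 29, 3 of 55 (between 25% and 40%) and 6 of 228. Called higher over all gene models were 0.0988% in kyp and 0.56% in cmt3. The highest share of calls in both mutants was thus that between 10% and 25%, but other measures did not all have this order. The 4-fold count in cmt3 was 7 of 28 under 10% and 6 of 29 between 10% and 25%. In kyp that count was 4 and 6. Over all gene models it was 0.912% in cmt3 and 0.441% in kyp. Median changes were higher under 10%, at 0.37 against 0.21 in kyp and 0.48 against 0.30 in cmt3. At an unadjusted p under 0.05 (limma) there were 13 and 9 members in kyp, and 12 and 13 in cmt3. The share of all gene models under that limit was 10.2% in kyp and 23.0% in cmt3. In cmt3 Tnp1 and Tnp2 genes together gave 9 calls of 25 (36%) below 25% and 5 of 114 (4.39%) at or above it. Ptta genes gave 1 of 19 (5.26%) and 3 of 107 (2.8%), where 0.56% of all gene models were called higher. The 4-fold count in cmt3 was 36% and 9.65% for Tnp1 and Tnp2, and 21.1% and 9.35% for Ptta, against 0.912% of all gene models. Ptta median changes in cmt3 were 1.12 below 25% and 0.30 at or above it. Transposable element genes outside CACTA showed the same direction, with 7.68% of 651 called higher in cmt3 below 25% and 0.882% of 1474 at or above it. Members below 25% had a wild type median of 5.89, against 5.43 for those at or above it, so the 2 groups of members also differed in level. The part of that difference in the calls was not tested.

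**Figure D5:**
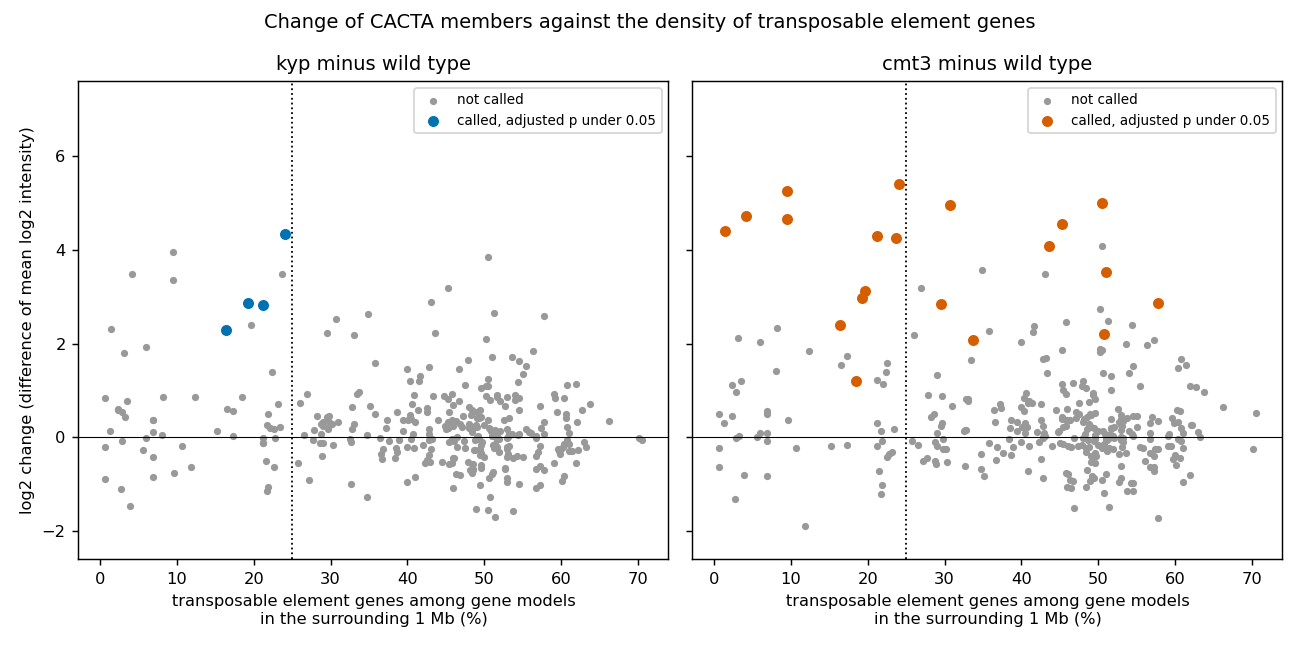
Log2 change (y axis) of the 340 CACTA members against the share of transposable element genes in the surrounding 1 Mb in percent (x axis), in kyp minus wild type (left) and cmt3 minus wild type (right). All 4 genes called in kyp and 11 of the 20 called in cmt3 lie left of the dotted line at 25%, where 57 of the 340 members lie.

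The genes beside the called elements were examined next. The nearest gene models to either side of the 20 included 26 that were not classed as transposable element genes by their descriptions. Of these, 0 were called higher in cmt3 and 1 lower, and 0 were called in kyp (limma). Over all gene models 0.56% were called higher and 0.181% lower in cmt3, and 0.105% were called in kyp. At an unadjusted p under 0.05 there were 4 in kyp (15.4%, against 10.2% of all gene models) and 10 in cmt3 (38.5%, against 23.0%). Their changes had a median of -0.02 in kyp and 0.13 in cmt3. The highest change in cmt3 was 1.55, in AT2G05670 (adjusted p = 0.160, limma). That gene is described as a pseudogene similar to a putative AP endonuclease/reverse transcriptase, so the 26 may not be free of element genes. The lowest change in cmt3 was -2.29, in AT1G33590 beside AT1G33580 (adjusted p = 0.453, limma), and it rests on cmt3 replicate 2. AT1G33590 read 15.90 and 15.94 in kyp, 15.95 and 11.20 in cmt3, and 15.90 and 15.84 in wild type. The gene called lower was RLP19 (AT2G15080), a receptor-like protein gene 1305 bp from AT2G15070. It read 10.74 and 10.83 in kyp, 10.89 and 11.00 in cmt3, and 12.60 and 12.39 in wild type. It fell by 1.55 on the log2 scale in cmt3 (adjusted p = 0.0283) and was lower by a difference of -1.71 in kyp that was not called (adjusted p = 0.0609). Beside the Tnp1 and Tnp2 pair that stood higher in both mutants, RLP19 stood lower in both, and any link between them was not tested.

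Among 20 genes of the silencing pathway, KYP and CMT3 included, 0 were called in kyp and 1 in cmt3 (limma), with median changes of 0.08 and 0.09, and 3 and 7 had an unadjusted p under 0.05 (15% and 35%, against 10.2% and 23.0% of all gene models). The call was CMT3, which fell by 1.65 on the log2 scale in cmt3 (adjusted p = 0.0159, limma). KYP read 10.04 and 9.91 in kyp and 10.24 and 10.19 in wild type, a difference of -0.24 (adjusted p = 0.515), and where its probes lie relative to the mutation was not tested. No other gene of the list, among them MET1, DDM1, CMT2, DRM2 and the SUVH5 and SUVH6 histone methyltransferases, passed in either mutant.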

How the data were processed

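RNA from young leaves was measured on 6 long-oligonucleotide NimbleGen arrays in 1 colour. The deposited values are intensities on a linear scale, normalized by RMA by the authors, per the labels. They lay between 10.6 and 64963, and the deposited table that joins all arrays was identical to them (0 values differed). The RMA settings were not given in the sources used here. An array has no count to state its depth, so precision is limited by how many arrays there are.

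Intensities were put on the log2 scale here from the deposited values, with no filter. The 3 genotypes were fitted in limma (version 3.58.1, under R 4.3.3, with eBayes at default settings) in 1 model over all 6 arrays and 30361 gene models, with 3 residual and 1.41 prior degrees of freedom. Errors of changes are limma's standard errors, and intervals use 95%. Slides came from image names in the files. Alternatives were a slide block, a replicate block, an intensity trend, robust moderation, removal of the lowest 25% of intensities, quantile normalization, an adjusted p under 0.10, only the groups compared, and each array left out.

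The members and gene lists were chosen with earlier results of these data known. Members named in detail were those called, up to the 12 with the largest rise in a mutant, the 5 with the smallest p where under 5 were called, the 5 highest in wild type and the largest change in each family. Names added after values were seen are AT3G29739, AT4G06698, AT4G08871 and AT5G28526, the neighbouring partners of called Tnp1 and Tnp2 genes, and those so marked in the text. Coordinates are as deposited, for gene models marked Release 6. The RefSeq table matched 29976 of the 30361 loci and gave symbols and gene types. Sequences were not used here.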

Additional observations from a re-analysis of the deposited data

How the results depend on the processing

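The number of CACTA genes called depended on the fit. In kyp (4 called) it was 0 with the slide as a block, 0 with the replicate block, 8 with an intensity trend (2.35%, against 0.28% of all gene models), 0 with only the groups compared, 10 at an adjusted p under 0.10 (2.94%, against 0.336%), and 0 to 0 with 1 array left out. Where it was 0, 0 of all gene models were called too. In cmt3 (20 called) it was 0 with the slide as a block, 8 with the replicate block (2.35%, against 0.227% of all gene models), 34 with an intensity trend (10%, against 7.48%), 4 with only the groups compared (1.18%, against 0.128%), 36 at an adjusted p under 0.10 (34 higher and 2 lower, 10.6%, against 4.17%), and 1 to 6 with 1 array left out. Robust moderation left 16 in cmt3 (4.71%, against 0.586% of all gene models) and quantile normalization 20 (5.88%, against 0.705%). In kyp each of these 2 settings left 4 (1.18%, against 0.102% and 0.0988% of all gene models). Every alternative left 0 between kyp and cmt3. The replicate numbers did not pair the arrays: deviations of same-numbered arrays from their group means correlated at -0.12 between kyp and wild type, 0.00 between cmt3 and wild type, and -0.04 between kyp and cmt3. Without the lowest 25% of intensities 115 members remained, and the medians were 0.57 in kyp, 0.77 in cmt3 and -0.40 for kyp minus cmt3. That filter uses the mean over all arrays and so keeps members that are high in a mutant. With 1 array left out, the kyp median was 0.068 to 0.19, the cmt3 median was 0.18 to 0.28, and the number at least 4-fold higher in kyp than in cmt3 was 0 to 4, against 0 with all arrays. Changes that were not called turned sign as follows. AT1G44070 in kyp ran from -0.28 to 0.056 with 1 array left out. AT1G45256 was -0.15 in kyp and -0.19 in cmt3 with the slide as a block, and ran from -0.15 to 1.88 in kyp with 1 array left out. AT4G08110 in cmt3 was -0.020 with the slide as a block and ran from -0.032 to 0.096 with 1 array left out. AT5G35606 in cmt3 ran from -0.29 to 0.14. The causes were not tested. Low intensities limit the folds of most members, and 2 arrays a group limit every test.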
